A study of Homo sapiens with 8 samples.

Results

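The MAX network, the group of transcription factors built around the MYC partner MAX, was followed through RNA-seq of Hep3B cells. The members were 10 named genes, MYC, MYCN, MAX, MXD1, MXD3, MXD4, MXI1, MNT, MLX and MLXIPL, taken from both deposited tables by gene name and summed over transcripts. Rows were present for 9 of the 10 among 16040 genes of the first table, which holds Hep3B and the knockout, and 14955 of the second, which holds the siRNA libraries. The RNA level of MYCN was not analysed here. The genes were chosen by their place in the network and with the knockout comparison already known, in which MXD1 passed the test, so their knockout values are given as a description without p-values. Their values in the siRNA comparison did not enter the choice and were tested.

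Hep3B is a human hepatocellular carcinoma line, and all 8 libraries came from it, grown in serum-containing medium. The 4 groups, each of 2 libraries, were wild-type Hep3B, Hep3B labelled as SOX4 knockout, Hep3B transfected with a scramble control siRNA, and Hep3B transfected with STAT6 siRNA. SOX4 and STAT6 are transcription factors, and the study compared the knockout with Hep3B and the STAT6 siRNA with the scramble siRNA to find genes that depend on each. The study's methods name a pair of CRISPR/Cas9 knockout lines for this comparison, and the labels do not say which line each knockout library came from. Puromycin is named there for the medium of the knockout cells and for no other group. Knockout and puromycin therefore cannot be told apart in that comparison. Whether the pairs of the other groups are separate cultures is not stated, so the spread between those libraries may be technical.

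MYC is a basic helix-loop-helix leucine zipper protein that binds DNA as a dimer with MAX, mainly at the sequence CACGTG, the E-box, and raises transcription of genes for ribosome production, nucleotide synthesis and growth. MXD1, MXD3, MXD4, MXI1 and MNT also pair with MAX, occupy the same E-boxes and recruit the SIN3 histone deacetylase complex, so they act as antagonists of MYC. MLX is a second hub, which pairs with the glucose-responsive factors ChREBP, encoded by MLXIPL, and MondoA, and in liver ChREBP drives glycolytic and fatty acid synthesis genes.

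E-boxes were looked for in the promoters of the members, because the network's proteins bind them and because several members differed between Hep3B and the knockout libraries. RefSeq windows on GRCh38.p14, from 250 bases before to 50 after each start site, were used for 9 of the 10 members, MYCN included, in 12 windows. The MYC promoter was not analysed here. CACGTG, which reads the same on both strands, was found in 3 windows, those of MXD4, MNT and MLX. Of all 35116 windows of that length, 7.26% held it. The sequences upstream of these 3 genes are printed with that of MXD1, which holds none. Each is read 5′ to 3′ on the strand of the gene, in lower case with the E-box in capitals, and stops before the first base of any transcript in the deposited tables. They lie at chr2:69914859-69915040 on the plus strand for MXD1, chr4:2262110-2262359 on the minus strand for MXD4, chr17:2401061-2401310 on the minus strand for MNT and chr17:42566850-42567059 on the plus strand for MLX.
MXD1: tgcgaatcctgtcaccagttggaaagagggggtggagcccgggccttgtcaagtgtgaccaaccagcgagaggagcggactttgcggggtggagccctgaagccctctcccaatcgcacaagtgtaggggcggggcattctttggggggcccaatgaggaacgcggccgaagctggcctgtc
MXD4: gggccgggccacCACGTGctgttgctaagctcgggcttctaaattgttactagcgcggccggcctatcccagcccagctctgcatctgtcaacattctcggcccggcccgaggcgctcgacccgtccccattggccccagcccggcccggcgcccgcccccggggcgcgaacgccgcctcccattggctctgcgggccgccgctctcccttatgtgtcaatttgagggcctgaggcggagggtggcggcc
MNT: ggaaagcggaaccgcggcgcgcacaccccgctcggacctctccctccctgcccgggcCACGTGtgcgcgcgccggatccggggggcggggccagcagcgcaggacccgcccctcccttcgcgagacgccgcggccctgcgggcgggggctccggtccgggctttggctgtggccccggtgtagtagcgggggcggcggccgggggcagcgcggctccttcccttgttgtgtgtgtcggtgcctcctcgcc
MLX: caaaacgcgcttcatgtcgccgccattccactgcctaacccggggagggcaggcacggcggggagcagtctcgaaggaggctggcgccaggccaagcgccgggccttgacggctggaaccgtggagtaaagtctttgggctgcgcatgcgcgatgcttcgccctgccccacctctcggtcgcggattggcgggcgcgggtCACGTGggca
The E-box began 238 bases before the start site in MXD4, 193 in MNT and 50 in MLX. The STAT6-type letters TTCNNNNGAA were in 0 of the 12 member windows and in 6.44% of all windows, the shorter TTCNNNGAA in 0 and 7.66%, and the SOX-type letters AACAAAG, read on both strands, in 0 and 5.2%. These are matches of letters in a window and do not show binding. The start sites are those of RefSeq, not always those of the deposited transcripts. On the minus strand, the MAX windows reach chr14:65102533, short of the outermost deposited start at 65102695. The MXD3 window, also on the minus strand, begins at chr5:177312703, upstream of the deposited start at 177312291.

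The libraries held between 16266282 and 25353113 expected counts, that is, estimated read counts that need not be whole. Levels are given as CPM, counts scaled to a common library size, after TMM scaling within each table. For cell type markers and for genes that overlap members, CPM used the library totals without TMM factors. Fold changes are on the log2 scale with their standard error from edgeR. All 9 hepatocyte markers had rows, with a summed level of 12200 to 54400 CPM per library. The endothelial markers CDH5, VWF and KDR and the leukocyte marker CD3E had none, and PTPRC was at most 0.237 CPM. Other genes of the leukocyte list were present, CD68 at 29.3 to 88.8 CPM and LYZ at 6.35 to 330 CPM. SOX4 had 799 and 266 CPM in Hep3B and 298 and 302 CPM in the knockout libraries, a log2 difference of -0.83 (standard error 0.54, adjusted p = 0.372 in edgeR), so its RNA did not check that label. STAT6 had 42.5 and 31.4 CPM with scramble and 9.92 and 5.98 CPM with STAT6 siRNA (log2 difference -2.22, standard error 0.72, adjusted p = 1.00 in edgeR). In the knockout table STAT6 was also lower, at 32.0 and 13.2 CPM in Hep3B and 2.76 and 2.20 CPM in the knockout libraries (adjusted p = 0.0275 in edgeR).

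In the knockout libraries the activator MYC, its partner MAX and the antagonist MXD1 lay below both Hep3B libraries, while the antagonists MXD3 and MXD4 and the ChREBP gene MLXIPL lay above both. MXI1, MNT and MLX overlapped. Of all 14415 genes tested, 27.4% had both knockout libraries below both controls and 30.6% had both above, beside 3 of 9 members each way. MXD1 was the 1 member with an adjusted p-value below 0.05, a mark that 5.89% of all genes carried, 4.5% as higher and 1.39% as lower. Because this comparison chose the members, nothing is read from these counts. In bulk RNA, fewer cells that express a gene and less of its RNA per cell cannot be told apart.

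**Figure D1:**
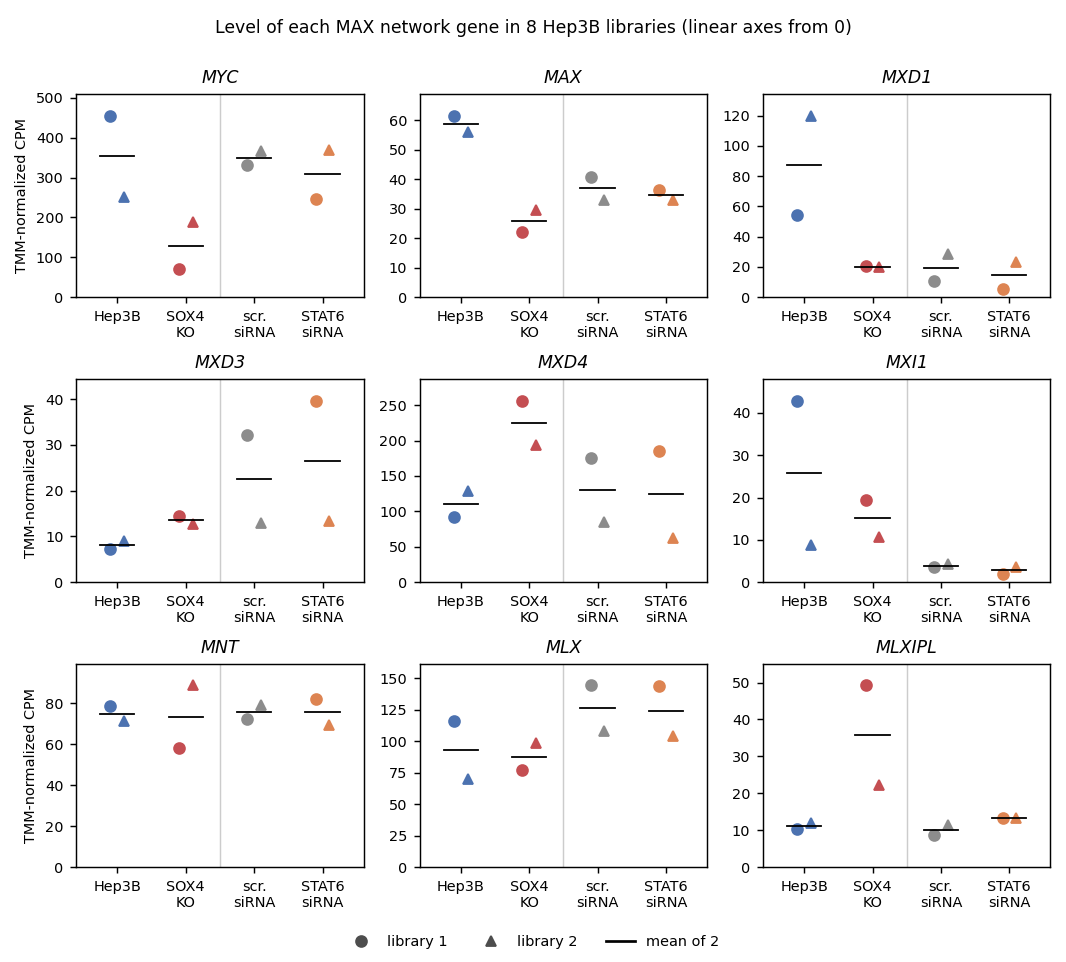
Each panel plots 1 gene, with TMM-normalized CPM on a linear axis from 0 and the 4 groups along the horizontal axis. Circles are library 1, triangles library 2 and bars the mean of both. The line divides the 2 tables, which were scaled separately. MYC is at 455 and 252 CPM in Hep3B and 70.5 and 188 CPM in the knockout libraries, MXD4 is highest in the knockout, and no siRNA pair separates except MLXIPL.

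MYC, the main activator of the network, had 455 and 252 CPM in Hep3B and 70.5 and 188 CPM in the knockout libraries. The log2 difference was -1.45 (standard error 0.55). Library 1 was the higher of the Hep3B pair and the lower of the knockout pair, and with single libraries left out the estimate ranged from -2.35 to -0.90. MAX, a partner of MYC and of the antagonists, had 61.6 and 56.1 CPM in Hep3B and 22.2 and 29.4 CPM in the knockout libraries, a log2 difference of -1.19 (standard error 0.36). Its libraries were close within each group, and the estimate lay between -1.44 and -0.99 with each library left out.

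Among the antagonists the directions were mixed. MXD1, at chr2:69915041-69942944 and known for its rise in differentiating cells, had 54.3 and 120 CPM in Hep3B and 20.7 and 19.7 CPM in the knockout libraries. Its log2 difference of -2.11 (standard error 0.46) was the largest fall among the members. The knockout libraries were nearly equal and the Hep3B libraries far apart, and the estimate was -1.43 without Hep3B library 2. The MXD1 estimate was -2.13 without knockout library 1 and -2.12 without knockout library 2, where the Hep3B pair alone gave the spread. It no longer passed the threshold without knockout library 1, without knockout library 2, or in a fit of all 8 libraries.

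MXD4, at chr4:2247433-2262012, encodes another MAX-binding repressor of the same family and had 91.5 and 128 CPM in Hep3B and 256 and 194 CPM in the knockout libraries. The log2 difference was 1.03 (standard error 0.37), and it lay between 0.75 and 1.29 with each library left out. MXD3, also of this family, had 7.32 and 8.91 CPM in Hep3B and 14.4 and 12.8 CPM in the knockout libraries, a log2 difference of 0.74 (standard error 0.43). Both knockout libraries were above both Hep3B libraries for either gene.

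The other antagonists did not separate. MXI1, a close relative of MXD1, had 42.9 and 8.81 CPM in Hep3B and 19.5 and 10.7 CPM in the knockout libraries. Its estimate of -0.78 (standard error 0.70) became 0.71 without Hep3B library 1. MNT, at chr17:2384060-2400964, is a broadly expressed antagonist and had 78.8 and 71.2 CPM in Hep3B and 58.2 and 88.8 CPM in the knockout libraries, with an estimate of -0.029 (standard error 0.36).

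In the MLX arm the hub overlapped and the glucose-responsive factor did not. MLX had 116 and 70.1 CPM in Hep3B and 77.1 and 98.2 CPM in the knockout libraries, an estimate of -0.087 (standard error 0.38). MLXIPL, at chr7:73593194-73624543, had 10.3 and 11.9 CPM in Hep3B and 49.2 and 22.2 CPM in the knockout libraries. Its log2 difference was 1.69 (standard error 0.47), the largest positive value among the members, and was 1.01 without knockout library 1. Hepatocyte markers were higher in the same libraries, 8 of 9 lying above both Hep3B libraries, with a summed level of 15442 and 12180 CPM in Hep3B and 54370 and 29932 CPM in the knockout libraries. ALB alone had 7110 and 7140 CPM against 29600 and 13100 CPM. The 3 fibroblast markers with rows, of 5, summed to 4.22 and 7.77 CPM in Hep3B and 105 and 74.5 CPM in the knockout libraries, most of it LUM at 89.1 and 52.1 CPM, while COL3A1 and DCN had no rows. The 3 leukocyte markers with rows, of 5, summed to 85.3 and 35.9 CPM against 194 and 419 CPM, mainly as LYZ and CD68. Their part in the members' values was not tested.

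After STAT6 siRNA no member passed the test. edgeR called 0.0% of the 13554 genes tested at an adjusted p-value below 0.05, with 14 genes at an unadjusted p-value below 0.05, and none of the members was among those, the lowest unadjusted p being 0.539 (edgeR, each adjusted p = 1.00). DESeq2 also called 0 genes. The standard errors of the members ran from 0.55 to 0.83. STAT6 itself, at a log2 difference of -2.22, was not called, so the lack of calls does not show a lack of change. With a replicate block, which takes same-numbered libraries as pairs, the members' standard errors were 0.20 to 0.30 and 0 members passed. MXD1 was then at -0.555 (standard error 0.22), MLXIPL at 0.40 (standard error 0.22) and MNT at -0.0073 (standard error 0.21).

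MYC had 331 and 365 CPM with scramble and 246 and 370 CPM with STAT6 siRNA (log2 difference -0.18, standard error 0.55). MAX had 40.9 and 32.9 CPM against 36.5 and 33.0 CPM (-0.084, standard error 0.63). For both genes the groups overlapped.

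MXD1 had 10.5 and 28.6 CPM with scramble and 5.58 and 23.2 CPM with STAT6 siRNA (log2 difference -0.44, standard error 0.83). MXD4 had 175 and 85.5 CPM against 185 and 63.1 CPM (-0.074, standard error 0.65). MXD3 had 32.2 and 12.8 CPM against 39.7 and 13.3 CPM (0.23, standard error 0.77). In these 3 genes library 1 differed from library 2 in both groups by more than the groups differed from each other, MXD1 being lower and MXD3 and MXD4 higher in the libraries numbered 1.

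MXI1 had 3.56 and 4.22 CPM with scramble and 1.84 and 3.71 CPM with STAT6 siRNA (log2 difference -0.48, standard error 0.76). MNT had 72.5 and 79.4 CPM against 82.2 and 69.4 CPM, and MLX had 144 and 108 CPM against 144 and 104 CPM, with estimates of -0.0022 (standard error 0.58) and -0.021 (standard error 0.57). MLXIPL had 8.71 and 11.6 CPM with scramble and 13.4 and 13.2 CPM with STAT6 siRNA (0.39, standard error 0.72). It was the 1 member of 9 with both treated libraries above both controls, where 2.74% of all genes were, and no member lay below both, where 5.26% were.

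**Figure D2:**
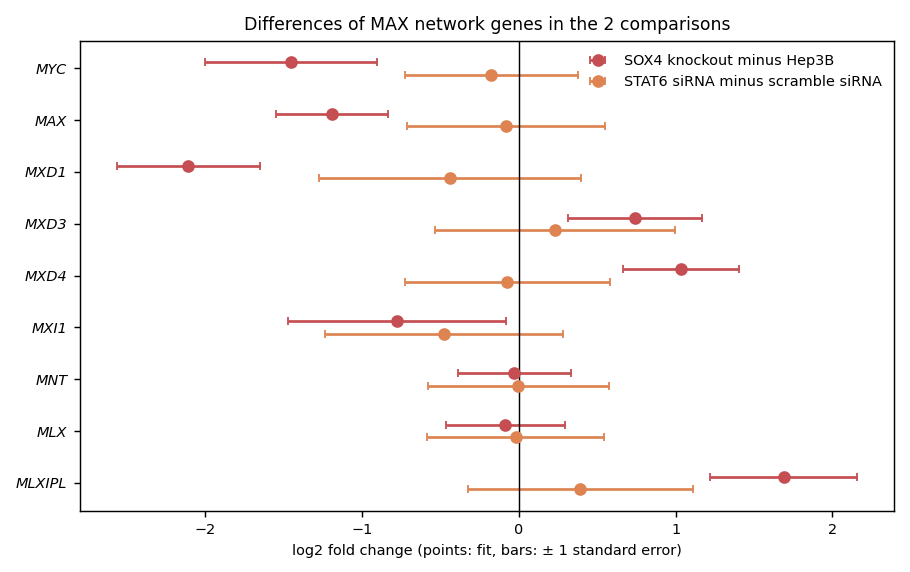
Points are log2 fold changes of the 9 members, for the knockout against Hep3B and for STAT6 siRNA against scramble siRNA, and bars are 1 standard error either side. The knockout bars of MYC, MAX, MXD1 and MXI1 lie below 0 and those of MXD3, MXD4 and MLXIPL above it. Every siRNA bar crosses 0, in the fit without a replicate block. With the block, 1 standard error did not reach 0 for MXD1, MXI1 and MLXIPL but did for the other members. Even so, 0 members passed.

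The difference of the 2 effects was estimated in a fit of all 8 libraries, in which each comparison kept its own controls. It is given without a p-value, because the knockout values chose the members. The knockout effect minus the siRNA effect was -1.36 (standard error 0.79) for MYC, -1.22 (standard error 0.71) for MAX and -1.76 (standard error 0.99) for MXD1 on the log2 scale. It was 0.97 (standard error 0.84) for MXD4 and 1.17 (standard error 0.80) for MLXIPL.

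To compare genes with each other and to set the 4 groups side by side, levels per transcript length (TPM) were computed from the counts and the lengths of the transcripts. The tables were filtered separately before deposition and no library is shared, so levels across them are a description. MYC was the highest member per length in 7 of 8 libraries, at 176 to 456 TPM, and ranked behind MXD4 and MLX in knockout library 1, at 78.9 TPM. MLX, MXD4 and MAX followed in most libraries, with MLX at 76.4 to 119 TPM. These 3 changed places between libraries of 1 group, so their order was not resolved.

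MXD1 differed between the control groups as well as within the knockout comparison. It had 23.1 and 56.9 TPM in untransfected Hep3B, 9.79 and 8.33 TPM in the knockout, 3.78 and 13.6 TPM with scramble siRNA and 1.69 and 10.7 TPM with STAT6 siRNA. The knockout libraries therefore lay within the range of the scramble libraries. MAX was likewise highest in untransfected Hep3B, with 88.3 and 88.2 TPM in Hep3B, 33.3 and 42.2 TPM in the knockout, 47.6 and 55.3 TPM with scramble and 35.6 and 51.7 TPM with STAT6 siRNA. MXD3 ran the other way, at 8.24 and 11.2 TPM in Hep3B and 16.8 to 37.6 TPM in the 6 other libraries. MYC did not follow this split, since the scramble libraries, at 281 and 411 TPM, lay close to those of Hep3B, at 456 and 283 TPM. MLXIPL set the knockout apart, at 40.1 and 16.1 TPM against 5.47 to 10.5 TPM in the 6 other libraries. Transfection and the separate tables cannot be told apart in this difference between controls.

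The balance of activator and antagonists was described as MYC over the sum of MXD1, MXD3, MXD4, MXI1 and MNT, in TPM. The ratio was 2.89 and 1.42 in Hep3B and 0.315 and 0.990 in the knockout libraries. With scramble siRNA it was 1.77 and 3.06, and with STAT6 siRNA 1.21 and 3.72. The knockout libraries had the lowest ratios of the 8, and the STAT6 siRNA libraries the 3rd lowest and the highest. The log2 ratio without MXD1 was 1.76 and 1.00 in Hep3B and -1.61 and 0.051 in the knockout libraries, and from CPM without regard to length it was 0.73 and -0.42 against -2.39 and -0.80, so the order of these groups was the same each way.

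The make-up of the antagonists differed as well. MXD4 was 33.9% and 42.2% of their summed TPM in Hep3B and 66.9% and 59.7% in the knockout libraries. MXD1 was 14.6% and 28.7% in Hep3B and 3.91% and 4.41% in the knockout libraries. MXD4 was 54.7% and 41.8% with scramble siRNA and 53.0% and 37.0% with STAT6 siRNA, where MXD1 was at most 10.2%.

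**Figure D3:**
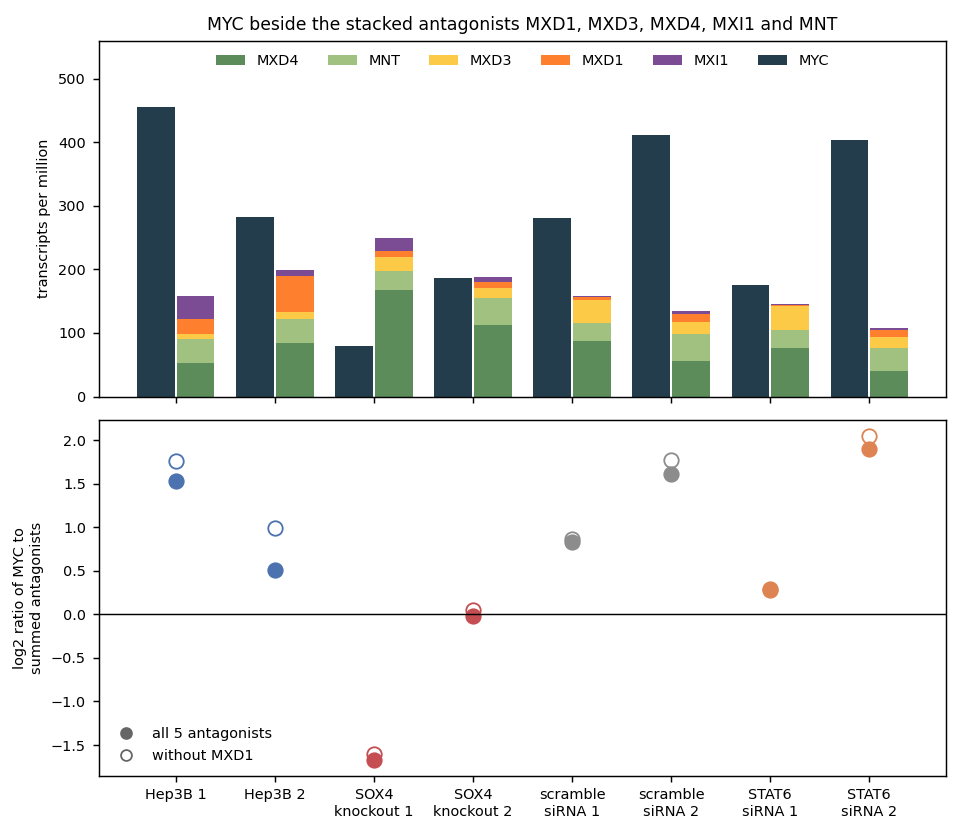
The upper panel shows, for each library, MYC in TPM beside the stacked TPM of the 5 antagonists, and the lower panel the log2 ratio of MYC to their sum, filled with all 5 and open without MXD1. Antagonists exceed MYC in both knockout libraries, narrowly in library 2 (ratio 0.990), and in no other library.

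Several members are counted as more than 1 RefSeq transcript, and their shares were compared within each gene. MXD3 lies at chr5:177305500-177312291 on the minus strand (hg38), and its shorter transcript NM_031300 ends 1705 bases before the longer NM_001142935 does. The shorter form was 14.6% and 14.5% of MXD3 counts in Hep3B and 56.6% and 50.9% in the knockout libraries. It was 52.2% and 37.2% with scramble siRNA and 51.4% and 40.5% with STAT6 siRNA, so untransfected Hep3B stood apart from the other 3 groups. In expected counts before scaling, the longer form had 110 and 145 in Hep3B and 165 and 114 in the knockout libraries, and the shorter form 18.8 and 24.5 against 215 and 118. PRELID1, on the opposite strand, overlaps the longer transcript by 1460 bases and had 109 to 200 CPM in these 4 libraries. PRELID1 had 376 and 210 CPM with scramble siRNA and 450 and 238 CPM with STAT6 siRNA, higher in the libraries numbered 1, as MXD3 was. Whether the counting used strand is not given in the sources used here, so reads of MXD3 and PRELID1 cannot be told apart in the overlap.

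MXI1, at chr10:110207605-110287365, has 3 start sites in the tables. The transcript from the first, NM_130439, was 56.8% and 32.9% of its counts in Hep3B and 16.9% and 45.5% in the knockout libraries, and that from the last, NM_005962, was 21.7% and 47.9% against 71.0% and 42.8%. The middle one, NM_001008541, was 21.5% and 19.2% in Hep3B and 12.1% and 11.7% in the knockout libraries. The shares of the first and last overlapped between groups, as the levels of the gene did, and those of the middle one did not. MAX, at chr14:65075124-65102695, had NM_145112 as its largest share, at 55.9% and 64.0% in Hep3B and 73.9% and 59.8% in the knockout libraries. It was 68.5% and 47.2% with scramble siRNA, where NM_002382 reached 46.9% in library 2, and 75.9% and 52.7% with STAT6 siRNA. MLX, at chr17:42567060-42573203, is overlapped by PSMC3IP on the opposite strand for 894 bases, and that gene had 3.46 to 28.9 CPM in the same libraries.

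**Figure D4:**
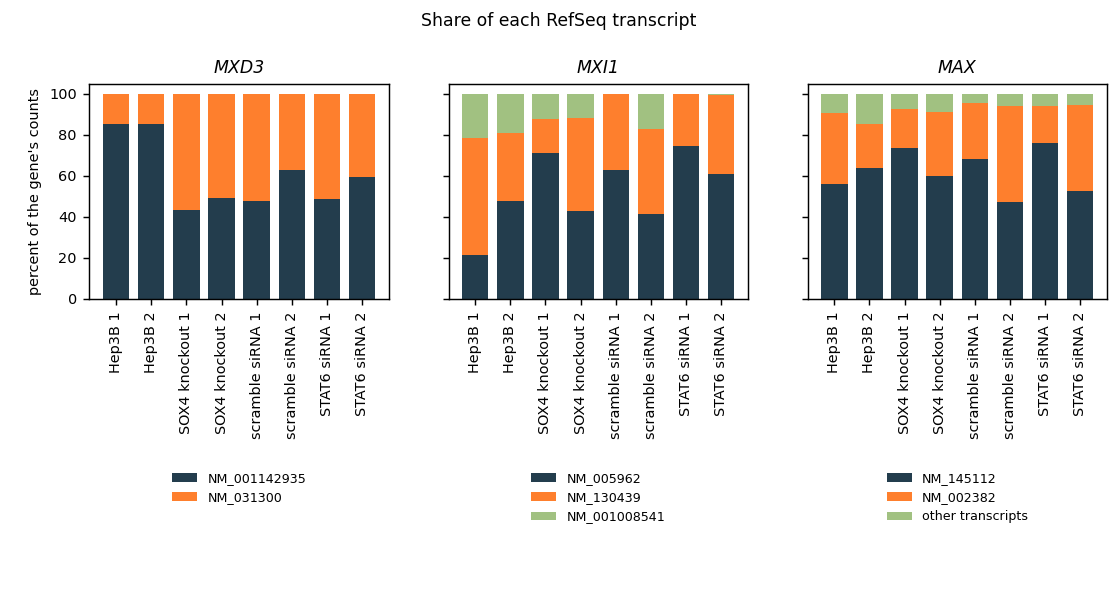
Stacked bars show the percent of each gene's expected counts assigned to each RefSeq transcript in the 8 libraries, for MXD3, MXI1 and MAX. The shorter MXD3 transcript is at 14.6% and 14.5% in Hep3B and at 37.2% or more in every other library.

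Genes around the network were described from 6 fixed lists that hold no member, with TXNIP standing in both the MYC-repressed and the MondoA and ChREBP lists. In the knockout table the median log2 difference of all genes tested was 0.0082, with 5.89% called and 27.4% below both controls. The 19 other network and partner genes, among them the SIN3 and histone deacetylase subunits that the antagonists recruit, had a median of -0.57, with 0 called and 10 below both controls. The median was -0.18 without Hep3B library 2. RBBP4, the histone-binding subunit of that complex, had 362 and 216 CPM in Hep3B and 159 and 158 CPM in the knockout libraries (log2 difference -0.87, standard error 0.39, adjusted p = 0.208 in edgeR). The 16 MYC cofactors had a median of -0.35, with 0 called and 7 below both controls, and -0.11 without Hep3B library 2. The 19 tested genes of MYC protein turnover and phosphorylation had a median of -0.15, with 0 called, which was -0.0021 without Hep3B library 2 and -0.39 without knockout library 2. The ubiquitin ligase gene HUWE1 among them had 327 and 640 CPM against 312 and 343 CPM, a log2 difference of -0.56 that was -0.0021 without Hep3B library 2 and -1.03 without Hep3B library 1.

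Of 30 MYC-activated genes, 2 were lower and 0 higher at an adjusted p-value below 0.05, the median log2 difference was -0.63, and 18 lay below both controls. Of all genes, 1.39% were called lower, 4.5% were called higher and 27.4% lay below both controls. The 2 that fell are ribosome-production genes. DDX18, a nucleolar RNA helicase, had 152 and 171 CPM in Hep3B and 48.0 and 53.8 CPM in the knockout libraries (log2 difference -1.66, standard error 0.33, adjusted p = 0.0359 in edgeR). NOP58, a core protein of box C/D small nucleolar particles, had 124 and 125 CPM against 43.1 and 40.9 CPM (-1.56, standard error 0.33, adjusted p = 0.0403 in edgeR). The median of the list was -1.15 without knockout library 2 and -0.30 without knockout library 1.

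Of 16 MYC-repressed genes tested, 3 were higher and 1 lower, with a median log2 difference of 0.15, which was 1.16 without Hep3B library 1 and -0.061 without Hep3B library 2. Of all genes, 4.5% were called higher and 1.39% lower. BTG2, an antiproliferative gene, had 5.39 and 4.64 CPM in Hep3B and 33.4 and 39.9 CPM in the knockout libraries (2.87, standard error 0.40, adjusted p = 0.0167 in edgeR). CDKN1A, which encodes the cell cycle inhibitor p21, had 75.6 and 76.1 CPM against 216 and 363 CPM (1.93, standard error 0.39, adjusted p = 0.0374 in edgeR). NDRG2 had 12.03 and 9.28 CPM against 45.1 and 39.2 CPM (1.98, standard error 0.37, adjusted p = 0.0318 in edgeR). GADD45A, a stress-response gene, fell instead, from 46.0 and 47.8 CPM to 14.7 and 13.1 CPM (-1.75, standard error 0.35, adjusted p = 0.0363 in edgeR).

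Of 17 MondoA and ChREBP targets tested, 4 were higher and 0 lower, with a median log2 difference of 0.42, which was -0.095 without knockout library 2, beside 4.5% of all genes called higher. PKLR, the liver pyruvate kinase gene, had 20 and 9 counts in Hep3B and 389 and 284 counts in the knockout libraries (4.23, standard error 0.61, adjusted p = 0.0186 in edgeR). KHK, the fructose kinase gene, had 4.26 and 7.02 CPM against 37.2 and 17.7 CPM (2.28, standard error 0.52, adjusted p = 0.0475 in edgeR). PNPLA3, a lipid droplet protein gene, had 23.4 and 21.9 CPM against 74.6 and 81.9 CPM (1.79, standard error 0.34, adjusted p = 0.0323 in edgeR). G6PC, which encodes the catalytic subunit of glucose-6-phosphatase, had 3 and 1 counts in Hep3B and 420 and 20 counts in the knockout libraries (adjusted p = 0.0485 in edgeR). G6PC and PKLR fell short of 10 counts in at least 1 Hep3B library. When genes short of 10 counts in any library were dropped, 13 targets were left, with a median of 0.45. Of these, 1 was called, PNPLA3, beside 518 of 12945 genes in that fit. KHK was then at an adjusted p of 0.0528 in edgeR, so the count of 4 depends on the filter. Liver genes are part of this list, and ALB was higher in the same libraries, as given with MLXIPL. Of the 10 called genes of all lists, 0 were called without knockout library 1 and 0 without knockout library 2, although none changed sign, and 2, BTG2 and PKLR, were called in the fit of all 8 libraries.

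After STAT6 siRNA 0 genes were called in each of the 6 lists, as 0 were among all genes. The medians lay between -0.076 for the other network genes and 0.31 for the MondoA and ChREBP targets, beside -0.033 for all genes tested, and were -0.046 for MYC-activated and 0.084 for MYC-repressed genes. Leaving out single libraries gave -0.18 to 0.15 for the MYC-activated genes, highest without scramble library 1, 0.043 to 0.71 for the MYC-repressed genes, highest without the same library, and -0.56 to 0.081 for the other network genes, lowest without STAT6 siRNA library 2. The MYC-activated median was 0.043 with median-of-ratios factors. FASN, the fatty acid synthase gene and the ChREBP target with the most counts, had 1284 and 1210 CPM with scramble and 2401 and 1442 CPM with STAT6 siRNA (log2 difference 0.62, standard error 0.57, adjusted p = 1.00 in edgeR). EIF4A1, a translation initiation helicase gene among the MYC-activated genes, had 1535 and 1110 CPM against 1461 and 1123 CPM, and THBS1, the thrombospondin gene among the repressed ones, had 486 and 1614 CPM against 427 and 1426 CPM. In the other 3 lists the genes with the most counts were BRMS1, at 261 and 147 against 378 and 154 CPM, HCFC1, at 385 and 369 against 515 and 339 CPM, and HUWE1, at 356 and 453 against 427 and 438 CPM.

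**Figure D5:**
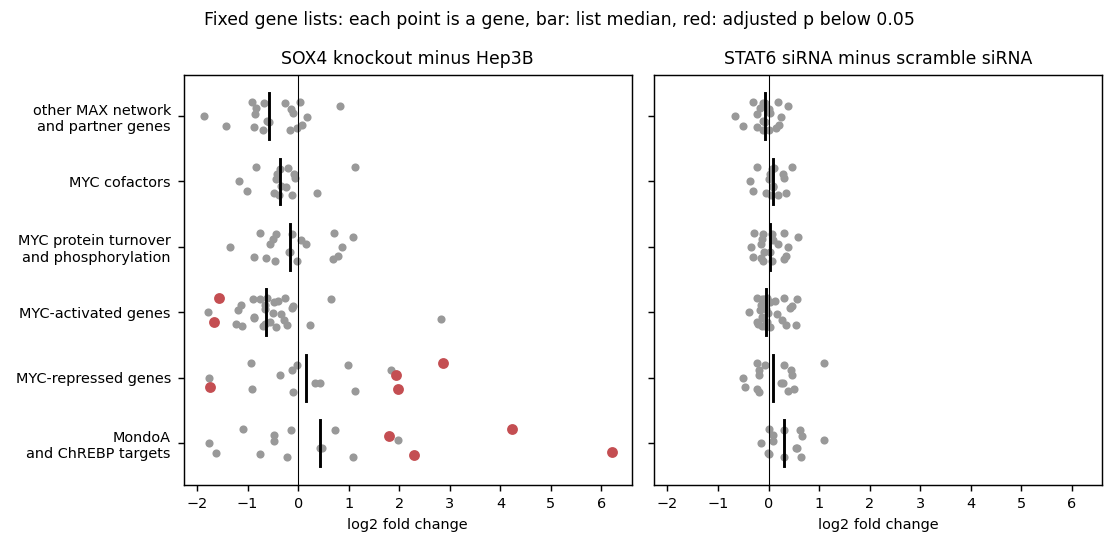
Each point is a gene of a fixed list, at its log2 fold change in the knockout (left) or STAT6 siRNA comparison (right), with a bar at the list's median and red points at an adjusted p-value below 0.05. In the knockout the median of the MYC-activated genes is -0.63 and 10 genes are red over all lists. The rightmost point is G6PC, whose position rests on 3 and 1 counts in Hep3B. No point is red for STAT6 siRNA.

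The genes whose levels were most alike to MYC and to MXD1 over the 8 libraries were ranked by Pearson correlation of log2 CPM among 11998 genes. The libraries share groups and tables, so this is a description. For MYC they were MTHFD1L, a mitochondrial folate enzyme gene (r = 0.990), IRF8 (r = 0.973), RNASEH1 (r = 0.965), DDX31 (r = 0.955) and EIF4H (r = 0.955). Of the members, MAX had r = 0.79 with MYC and MLXIPL r = -0.91, near the lowest of all genes. For MXD1 the 5 genes were CCDC77, MAL2, TERF2IP, ZNF736 and MGC27345, with r from 0.988 to 0.995. MXD1 and MYC had r = 0.12 with each other, and MXD3 had r = -0.85 with MXD1.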

How the data were processed

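RNA-seq libraries made from Hep3B cells with an Illumina stranded mRNA kit were analysed. The authors deposited expected counts per RefSeq transcript, not normalized, in one table for the knockout comparison and one for the siRNA comparison. The submitters' processing notes name STAR, Partek and hg38 without versions, and the counting settings are not given in the sources used here. Transcripts summing to under 10 counts over a table's 4 libraries had been left out, and 19 gene names per table had become dates and were split by chromosome. Counts were summed by gene name and rounded to whole numbers, since the design had assumed counts.

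Each table was fitted with edgeR 4.0.16 in R 4.3.3 (filterByExpr, TMM, glmQLFit with its defaults, glmQLFTest), and calls were made after Benjamini-Hochberg adjustment at 0.05. The fits were tested on simulated data. DESeq2 1.42.0, median-of-ratios factors, other count filters, a replicate block, a fit of all 8 libraries and leaving out each library were the alternatives. With 2 libraries a group and library totals from 16266282 to 25353113, precision is set by the spread between libraries. TPM used GENCODE 29 transcript lengths, found for all member transcripts. Promoters came from RefSeq GRCh38.p14. The deposited end coordinate was more often 1 past the RefSeq end (1535 genes of the first table) than equal to it (115), and was reduced by 1.

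The members and lists were chosen with earlier results of these data known. Named list genes were, in each comparison, up to 4 called genes with at least 50 mean counts and the largest change, otherwise the list's gene with the most counts. The 5 genes most like MYC and MXD1 were named. The results of 2 genes are not reported here. The study's other data types were not analysed here.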

Additional observations from a re-analysis of the deposited data

Results flagged for a closer look

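Both genes in this part stood out because every treated library of one comparison lay on the opposite side of its control mean from every treated library of the other comparison. For BTG2 the knockout effect minus the siRNA effect was a log2 value of 2.83 with a standard error of 0.84 (adjusted p = 0.298 in edgeR), with a rise in both knockout libraries and levels just below the scramble mean in both STAT6 siRNA libraries. For HUWE1 the same difference was -0.78 (adjusted p = 0.989 in edgeR), from lower levels in both knockout libraries and higher levels in both STAT6 siRNA libraries than the mean of their controls. The HUWE1 levels of treated and control libraries overlapped in both comparisons. Its knockout estimate was -0.0021 without Hep3B library 2. The share of all genes that meet this rule was not computed. Neither difference passed the test. The test reuses the values that flagged both genes, and BTG2 had been named by its knockout change, so these p-values are a description. With 2 libraries in a group, no single library could be tested as standing apart.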

How the results depend on the processing

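The number of genes called in the knockout comparison, 849, was 2122 with the DESeq2 Wald test (64.1% of them higher, against 76.3% with edgeR), 438 in a fit of all 8 libraries, 518 with at least 10 counts in every library, and 21 to 2298 when each library was left out. With a knockout library left out, the spread came from the Hep3B pair alone. A lower count there does not show that the differences rest on both knockout libraries. The MXD1 estimate, -2.11 in the main fit, was -2.13 without knockout library 1 and -2.12 without knockout library 2. For MYC, -1.45 in the main fit, the values were -0.90 and -2.35. In the siRNA comparison 0 genes were called except with a replicate block, which called 62. The library numbers share only a number in the labels. With 2 libraries in each group, the deviation of library 1 from its group mean was correlated between control and treated groups across genes. The correlation was -0.0849 over 14415 genes for the knockout and 0.873 over 13554 genes for the siRNA libraries. The block called 982 genes in the knockout, MXD1 the 1 member among them, and 0 members in the siRNA comparison. The count for the difference of effects, 11, was 1 with at least 10 counts in every library and 0 to 127 with each library left out.

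Members named as below or above both controls in the knockout kept that direction in every alternative, while leaving out a library gave -1.51 to 0.71 for MXI1, -0.40 to 0.25 for MNT and -0.41 to 0.26 for MLX. DESeq2 also called MAX and MLXIPL, and without Hep3B library 2 the MYC estimate was -1.82. The knockout comparison chose the members, so nothing is read from these calls. In the siRNA comparison signs turned with median-of-ratios factors for MAX (0.011), with those factors and DESeq2 for MXD4 (0.064 and 0.044), and with those and the fit of all 8 libraries for MNT (0.10, 0.085 and 0.053), MLX (0.086, 0.070 and 0.037) and EIF4A1 (0.070, 0.054 and 0.022). The median-of-ratios factors moved the median of all genes there from -0.033 to 0.046. Leaving out each library gave -0.51 to 0.089 for MYC, -0.23 to 0.14 for MAX, -1.81 to 0.46 for MXD1, -0.76 to 1.13 for MXD3, -1.05 to 0.62 for MXD4, -0.13 to 0.11 for MNT, -0.27 to 0.27 for MLX, -0.40 to 0.94 for BRMS1, -0.25 to 0.28 for EIF4A1, -0.15 to 0.45 for HCFC1, -0.0092 to 0.28 for HUWE1 and -1.31 to 0.94 for THBS1. The cause of these changes was not tested. Where a group is left with 1 library, that library is assumed to vary like the other group.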
